A study of Mus musculus with 12 samples.

Results

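The genes described here are 10 inflammatory genes grouped under the transcription factor NF-kB, and whether it drives each of them here was not tested. They are the chemokines Cxcl1, Cxcl2, Cxcl5, Cxcl16, Ccl2 and Ccl20, the secreted lipocalin Lcn2, the alarmin Il33, and the feedback inhibitors Tnfaip3 and Nfkbia. They were taken by symbol from a raw count table of 53599 genes, in which all 10 were found and all 10 passed the filter on low counts. RNA-seq was made from cultured mouse liver cells in 4 groups of 3 libraries, hepCLiP 3D, hepCLiP 2D, bilCLiP 3D and bilCLiP 2D, where the labels give hepCLiP as hepatocyte-derived and bilCLiP as derived from BEC, read here as biliary epithelial cells. The 2D cells grew on collagen in small hepatocyte medium (SHM) with 10% fetal bovine serum (FBS) and YAC, the mix of Y-27632, A83-01 and CHIR99021. For 3D, spheroids formed over 3 days in SHM with YAC and no FBS, and were then held in suspension for 6 to 8 days in SHM with YAC and 10 ng/ml oncostatin M, a cytokine related to interleukin 6. All 12 libraries therefore share YAC, and geometry, serum, oncostatin M and time differ together between 2D and 3D and cannot be told apart.

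The genotype tag is RosaConfetti for hepCLiP replicates 1 and 3 and RosaYFP for hepCLiP replicate 2 and all bilCLiP libraries, both being fluorescent reporters at the Rosa26 locus. Groups are those of the titles. In 4 libraries the treatment tag disagrees with the title, giving 3D for hepCLiP 2D replicate 3 and 2D for each of the 3 bilCLiP 3D libraries. The summed level of 8 hepatocyte markers was 18300 to 44400 CPM (counts scaled to library size) in bilCLiP 3D and 43200 to 53500 CPM in hepCLiP 3D, against 180 to 1040 CPM in bilCLiP 2D and 342 to 1690 CPM in hepCLiP 2D, so the titles and not the tags went with the marker levels. Total counts ran from 16142365 to 21253382 per library. The labels do not say whether replicates are separate animals or cultures, and p-values reflect the spread among the libraries alone, which may be technical. In bulk RNA, fewer cells expressing a gene and less RNA of it per cell cannot be told apart.

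In resting cells, NF-kB dimers of Rel proteins are held in the cytoplasm by IkB proteins. Signals from interleukin 1, tumour necrosis factor or Toll-like receptors activate the IkB kinase, IkB is degraded, and the freed dimers switch on genes for chemokines and also for their own inhibitors. In liver, Cxcl1, Cxcl2 and Cxcl5 attract neutrophils, Ccl2 attracts monocytes, and reactive biliary cells and injured hepatocytes are known sources of these ligands.

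RefSeq (GRCm38.p6) promoter windows were matched for 7 of the 10 genes, and Cxcl5, Cxcl16 and Ccl2 were not matched. Of the windows, the 250 bases before each transcript start were searched on both strands for a strict NF-kB motif (GGGA, then any 2 bases, then TTCC), for a relaxed one that includes it (GGG, any 3 bases, TTCC), and for TATAAA. Of the 6 windows with a match to the relaxed NF-kB motif, 4 are shown, 1 for each of Cxcl1, Cxcl2, Ccl20 and Nfkbia. Of the Tnfaip3 windows only the matched bases are given. The windows shown run 5′ to 3′ on the strand of the gene, with the relaxed matches of either strand in capitals. Where matches of both strands overlap the capitals mark their union.
Cxcl1, chr5:90890995-90891244, plus strand: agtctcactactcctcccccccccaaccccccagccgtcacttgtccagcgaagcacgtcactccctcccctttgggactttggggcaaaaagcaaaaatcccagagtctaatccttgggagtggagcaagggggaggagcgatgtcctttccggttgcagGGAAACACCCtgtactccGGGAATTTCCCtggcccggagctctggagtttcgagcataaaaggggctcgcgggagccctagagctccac
Cxcl2, chr5:90903649-90903898, plus strand: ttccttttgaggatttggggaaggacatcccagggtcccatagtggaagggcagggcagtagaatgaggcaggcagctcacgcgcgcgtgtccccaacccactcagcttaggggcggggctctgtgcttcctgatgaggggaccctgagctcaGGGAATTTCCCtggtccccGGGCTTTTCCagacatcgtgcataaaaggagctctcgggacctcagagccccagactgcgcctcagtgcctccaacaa
Ccl20, chr1:83116516-83116765, plus strand: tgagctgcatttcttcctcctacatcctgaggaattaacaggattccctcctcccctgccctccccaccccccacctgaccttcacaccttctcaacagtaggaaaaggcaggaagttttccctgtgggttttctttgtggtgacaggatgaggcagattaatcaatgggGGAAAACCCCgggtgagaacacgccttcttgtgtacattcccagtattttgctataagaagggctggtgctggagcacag
Nfkbia, chr12:55492648-55492897, minus strand: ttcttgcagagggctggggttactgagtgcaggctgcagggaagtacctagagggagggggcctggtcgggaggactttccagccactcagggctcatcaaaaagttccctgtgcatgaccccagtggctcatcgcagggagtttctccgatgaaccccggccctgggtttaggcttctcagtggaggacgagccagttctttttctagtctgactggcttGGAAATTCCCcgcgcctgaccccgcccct

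Cxcl1 and Cxcl2, neighbouring genes on chromosome 5, each held GGGAATTTCC on the plus strand with an overlapping GGGAAATTCC on the minus strand, at -71 to -61 in Cxcl1 and -97 to -87 in Cxcl2 as counted from the transcript start. Nfkbia held GGGAATTTCC on the opposite strand at -29 to -20. Ccl20 had a relaxed match only, GGGGTTTTCC at -80 to -71 on the minus strand. Tnfaip3 also had relaxed matches only. GGGGATTTCC lay at -12 to -3 of one start, on the strand opposite the gene. GGGTTATTCC lay at -90 to -81 of the other start, on the strand of the gene. No match to either NF-kB motif was in the windows of Lcn2 or of the Il33 starts. Of 32851 promoter windows of the same length in the RefSeq table, 1.21% held the strict motif and 4.65% the relaxed one, and TATAAA was in 12.4%. Among the 9 windows of the members, 3 held the strict motif, 6 the relaxed one and 3 TATAAA. A match describes letters in this window and was not tested as a binding site.

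**Figure D1:**
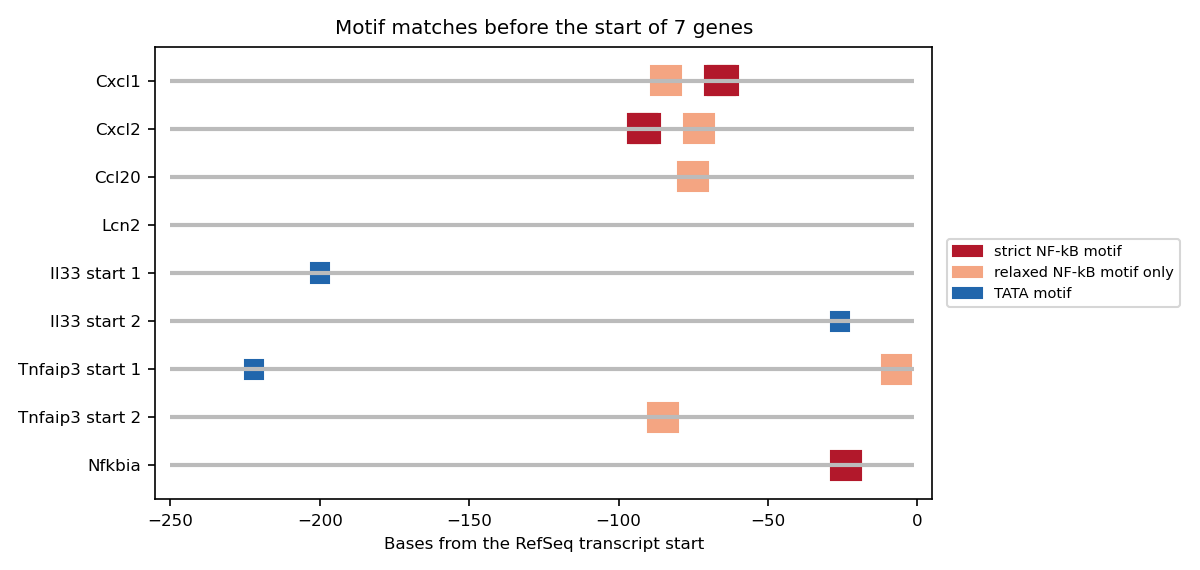
Positions of motif matches in the 250 bases before the RefSeq transcript start (x axis, bases) of 7 genes, with separate lines for each start of Il33 and Tnfaip3. Dark red marks the strict NF-kB motif, light red the relaxed motif alone and blue TATAAA; 3 of the 9 windows hold the strict motif, and the Lcn2 window holds none of the motifs.

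Cxcl2, Ccl2, Ccl20 and Il33 fell in 3D culture and Lcn2 rose, in both origins. In hepCLiP, 6 of the 10 genes were called lower in 3D than in 2D and 1, Lcn2, was called higher, at a Benjamini-Hochberg adjusted p under 0.05 in edgeR's quasi-likelihood test over 14798 genes. Over all genes tested, 34.7% were called in that comparison, 17.9% lower and 16.9% higher. In bilCLiP, 5 of the 10 were called lower and again Lcn2 higher, where 30.3% of all genes were called, 14.5% lower and 15.8% higher. The median log2 fold change of the 10 was -1.68 in hepCLiP and -1.53 in bilCLiP, where the medians over all genes tested were -0.06 and 0.00. With the replicate number as a block, 9 members were called lower in hepCLiP, where 3656 of the 14798 genes were called lower and 3317 higher. In bilCLiP the block called 8 members lower, where 3177 genes were called lower and 3206 higher, and Lcn2 was called higher in each origin.

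**Figure D2:**
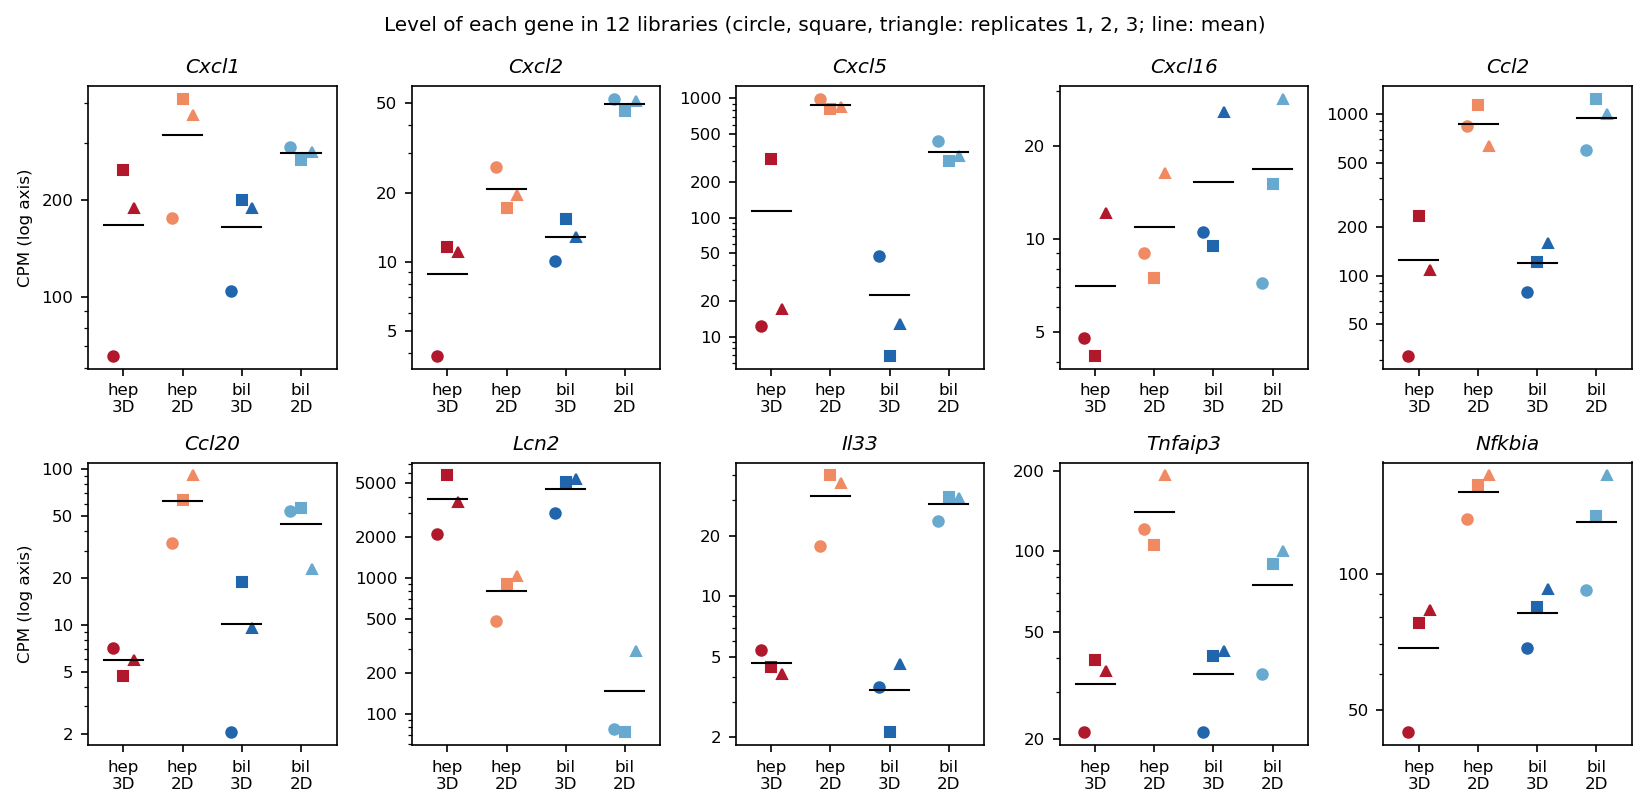
CPM (log axes) of each of the 10 genes in the 12 libraries; symbols are replicates 1, 2 and 3 and lines are group means. Ccl2, Ccl20, Cxcl2, Cxcl5 and Il33 have all 3D libraries below all 2D libraries of the same origin, and Lcn2 has them above.

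The CXC chemokines with an ELR motif, which act on neutrophils through CXCR2, had fold changes of unlike size, and the differences between genes were not tested. Cxcl5 had 12.2, 310 and 17.2 CPM in hepCLiP 3D, against 993, 811 and 844 CPM in hepCLiP 2D. It had 47.5, 6.94 and 12.7 CPM in bilCLiP 3D, against 438, 299 and 332 CPM in bilCLiP 2D. Within each origin all 3D libraries were below all 2D libraries, and hepCLiP 3D replicate 2 stood far above the other 3D libraries. In bilCLiP the fall was 15.9-fold (log2 -4.0 ± 1.17 SE, adjusted p = 0.0251). In hepCLiP the log2 fold change of -2.97 ± 1.11 missed the threshold (adjusted p = 0.0604). Without hepCLiP 3D replicate 2 it was -5.90 (adjusted p = 0.00123), and with the replicate block it was -4.65 (adjusted p = 0.0175). The call in bilCLiP ended on leaving out any of 3 libraries, with an adjusted p of 0.0884 for 3D replicate 2, of 0.0881 for 3D replicate 3 and of 0.0525 for 2D replicate 1.

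Cxcl2 had 3.88, 11.6 and 11 CPM in hepCLiP 3D, against 26.0, 17.2 and 19.6 CPM in hepCLiP 2D. It had 10.1, 15.4 and 12.9 CPM in bilCLiP 3D, against 51.9, 45.9 and 50.7 CPM in bilCLiP 2D. No 3D library reached the lowest 2D library of its origin. The gene fell 2.37-fold in hepCLiP (log2 -1.25 ± 0.344, adjusted p = 0.0168) and 3.87-fold in bilCLiP (-1.95 ± 0.346, adjusted p = 0.00208). Leaving out hepCLiP 2D replicate 1 ended the hepCLiP call (-1.06, adjusted p = 0.0587).

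Cxcl1, the neighbour of Cxcl2, had smaller fold changes that missed the threshold. It had 65.5, 247 and 188 CPM in hepCLiP 3D, against 176, 412 and 366 CPM in hepCLiP 2D, so the groups overlapped. It had 104, 200 and 189 CPM in bilCLiP 3D, against 291, 266 and 281 CPM in bilCLiP 2D, with no overlap. Neither difference was called, with log2 fold changes of -0.93 (95% interval -1.93 to 0.07, adjusted p = 0.134) in hepCLiP and -0.77 (-1.76 to 0.23, adjusted p = 0.227) in bilCLiP. With the replicate block both were called lower, at -1.04 (adjusted p = 0.00782) and -0.82 (adjusted p = 0.0226).

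Cxcl16, a membrane-bound chemokine that is shed by ADAM10 and ADAM17 and acts on T and NKT cells through CXCR6, was low in every group. It had 4.76, 4.18 and 12.1 CPM in hepCLiP 3D, against 8.97, 7.45 and 16.3 CPM in hepCLiP 2D. It had 10.5, 9.46 and 25.8 CPM in bilCLiP 3D, against 7.19, 15 and 28.4 CPM in bilCLiP 2D. The groups overlapped in both origins, replicate 3 was the highest library of each group, and the gene was not called in hepCLiP (log2 -0.63, 95% interval -1.97 to 0.70, adjusted p = 0.450) or bilCLiP (-0.14, -1.45 to 1.17, adjusted p = 0.882). With the replicate block it was called lower in hepCLiP (-0.71, adjusted p = 0.0449).

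Ccl2, the main monocyte attractant, acting through CCR2, had 32.0, 234 and 108 CPM in hepCLiP 3D, against 841, 1130 and 638 CPM in hepCLiP 2D. It had 79.6, 121 and 160 CPM in bilCLiP 3D, against 602, 1240 and 994 CPM in bilCLiP 2D. The highest 3D library was well below the lowest 2D library in each origin. The fall was 6.96-fold in hepCLiP (log2 -2.80 ± 0.608, adjusted p = 0.00527) and 7.84-fold in bilCLiP (-2.97 ± 0.613, adjusted p = 0.00468).

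Ccl20, which draws cells that carry CCR6, such as Th17 cells, had 7.10, 4.68 and 5.97 CPM in hepCLiP 3D, against 33.7, 63.0 and 91.4 CPM in hepCLiP 2D. It had 2.04, 18.9 and 9.56 CPM in bilCLiP 3D, against 54.0, 56.2 and 23.0 CPM in bilCLiP 2D. Groups did not overlap, though in bilCLiP the nearest 3D and 2D libraries were close. The fall was 10.6-fold in hepCLiP (log2 -3.40 ± 0.689, adjusted p = 0.00364) and 4.36-fold in bilCLiP (-2.12 ± 0.649, adjusted p = 0.0307). The bilCLiP call ended on leaving out any of 3 libraries, with an adjusted p of 0.0896 for 3D replicate 3, of 0.0752 for 2D replicate 1 and of 0.0812 for 2D replicate 2. Summed over the 6 chemokines, the level was 125 to 811 CPM in hepCLiP 3D and 1980 to 2440 CPM in hepCLiP 2D, and 253 to 410 CPM in bilCLiP 3D and 1440 to 1920 CPM in bilCLiP 2D.

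Il33, an alarmin stored in the nucleus and released from damaged epithelium, showed the smallest adjusted p of the 10 genes in each origin. It had 5.42, 4.47 and 4.10 CPM in hepCLiP 3D, against 17.7, 39.8 and 36.3 CPM in hepCLiP 2D. It had 3.55, 2.12 and 4.64 CPM in bilCLiP 3D, against 23.6, 31.1 and 30.9 CPM in bilCLiP 2D. All 6 spheroid libraries lay below all 6 of the 2D libraries. The fall was 6.71-fold in hepCLiP (log2 -2.75 ± 0.349, adjusted p = 0.000314) and 8.30-fold in bilCLiP (-3.05 ± 0.354, adjusted p = 0.000207).

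Lcn2, a secreted protein that binds bacterial iron carriers and belongs to the acute phase response of the liver, went the other way. It had 2110, 5730 and 3630 CPM in hepCLiP 3D, against 487, 905 and 1040 CPM in hepCLiP 2D. It had 3020, 5160 and 5410 CPM in bilCLiP 3D, against 77.3, 73.4 and 290 CPM in bilCLiP 2D. Every 3D library exceeded every 2D library of either origin. The rise was 4.72-fold in hepCLiP (log2 2.24 ± 0.591, adjusted p = 0.0138) and 30.8-fold in bilCLiP (4.95 ± 0.668, adjusted p = 0.000512). By mean CPM, Lcn2 ranked 33rd of all genes in hepCLiP 3D and 98th in hepCLiP 2D, and 24th in bilCLiP 3D and 1127th in bilCLiP 2D. Leaving out hepCLiP 2D replicate 1 ended the hepCLiP call (1.98, adjusted p = 0.0516).

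**Figure D3:**
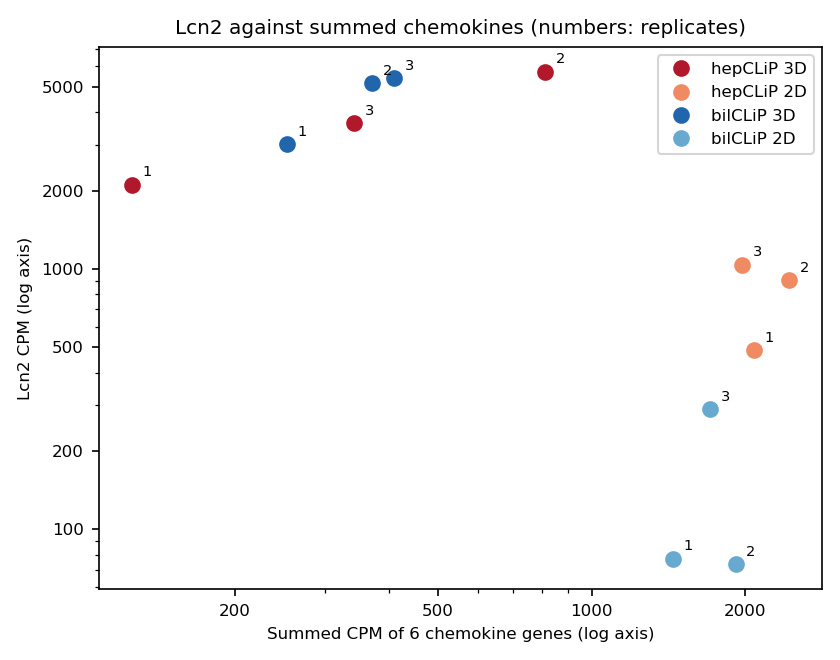
Lcn2 CPM (y, log axis) against the summed CPM of the 6 chemokine genes (x, log axis) in the 12 libraries, numbered by replicate. The 6 spheroid libraries sit at 125 to 811 CPM of chemokines with Lcn2 at 2110 CPM or more, and the 6 2D libraries at 1440 CPM or more of chemokines with Lcn2 at 1040 CPM or less.

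Both feedback inhibitors fell in hepCLiP. Tnfaip3, which encodes a ubiquitin-editing enzyme that shuts off signalling below the receptors, had 21.2, 39.5 and 35.8 CPM in hepCLiP 3D, against 121, 106 and 192 CPM in hepCLiP 2D. It had 21.2, 40.7 and 42.7 CPM in bilCLiP 3D, against 34.8, 89.8 and 99.9 CPM in bilCLiP 2D. The groups were apart in hepCLiP and overlapped in bilCLiP through the low bilCLiP 2D replicate 1. Tnfaip3 fell 4.34-fold in hepCLiP (log2 -2.12 ± 0.433, adjusted p = 0.00385). In bilCLiP the log2 fold change was -1.10 ± 0.421 and was not called by edgeR (adjusted p = 0.0715). It was called lower there by DESeq2's Wald test (-1.10, adjusted p = 0.0422), with the replicate block (-1.03, adjusted p = 0.00852) and without bilCLiP 2D replicate 1 (-1.44, adjusted p = 0.0170).

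Nfkbia encodes IkB alpha, the inhibitor that NF-kB itself restores after each round of activation. It had 44.6, 77.6 and 83.1 CPM in hepCLiP 3D, against 132, 157 and 165 CPM in hepCLiP 2D. It had 68.6, 84.3 and 92.7 CPM in bilCLiP 3D, against 91.8, 134 and 165 CPM in bilCLiP 2D. The hepCLiP groups were apart, and in bilCLiP a single 3D library passed the lowest 2D library. The fall was 2.21-fold in hepCLiP (log2 -1.15 ± 0.262, adjusted p = 0.00663), and in bilCLiP the log2 fold change of -0.67 ± 0.259 was not called (adjusted p = 0.0744). It was called there with the replicate block (-0.64, adjusted p = 0.00963), without bilCLiP 2D replicate 1 (-0.87, adjusted p = 0.0318) and without hepCLiP 3D replicate 1 (-0.65, adjusted p = 0.0417).

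Without overlap between groups, 7 members lay lower and 1 higher in hepCLiP 3D, where 46.9% of all genes did not overlap, 24.5% lower and 22.3% higher. In bilCLiP 3D, 6 members lay lower and 1 higher, where 49.1% of all genes did not overlap, 24.5% lower and 24.6% higher. With RosaYFP libraries only, which leaves 1 hepCLiP library per culture whose spread is borrowed from bilCLiP, 1 member, Il33, remained called lower in hepCLiP and none higher, where 769 of 15950 genes were called. Lcn2 had a log2 fold change of 2.66 there (adjusted p = 0.196) and Ccl20 one of -3.75 (adjusted p = 0.161).

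**Figure D4:**
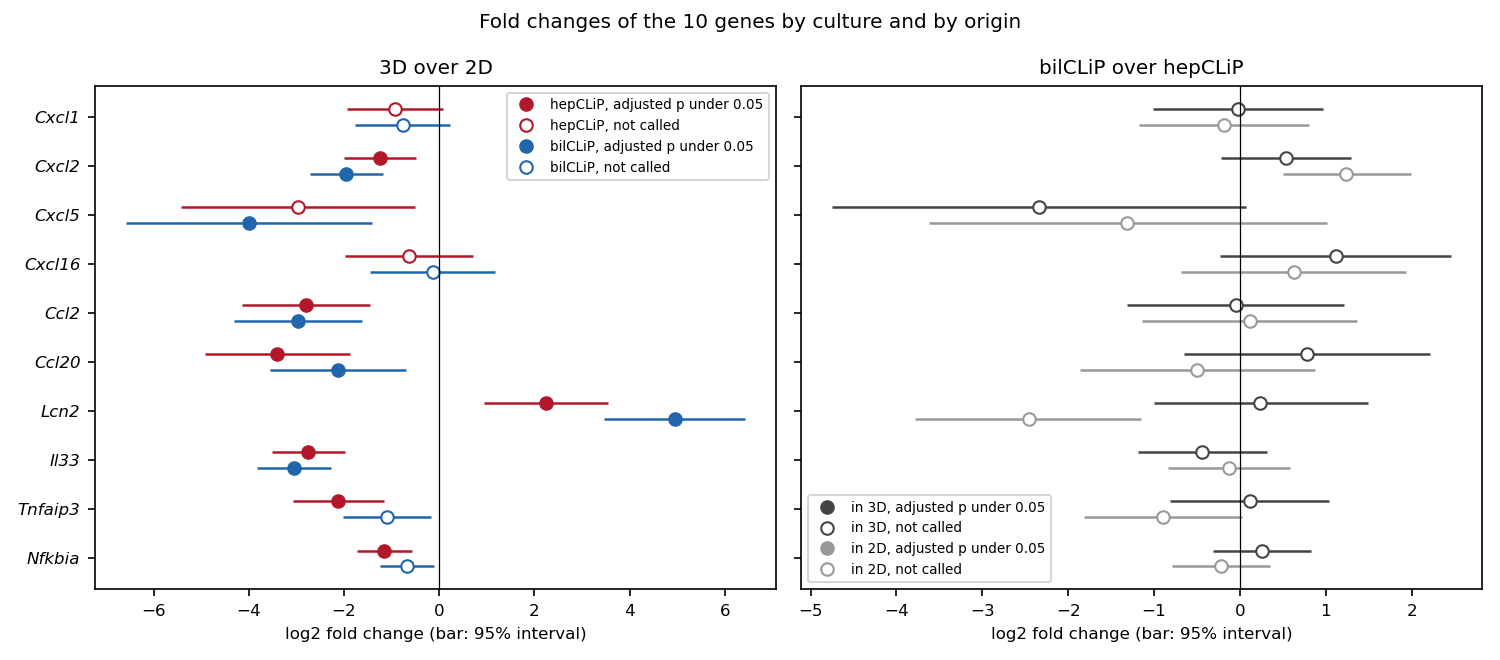
log2 fold changes with 95% intervals (bars) of the 10 genes, for 3D over 2D in each origin (left) and for bilCLiP over hepCLiP in each culture (right). Filled points have an adjusted p under 0.05; Lcn2 is the only filled point right of 0 on the left, and no point on the right is filled.

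The origins were then compared within each culture. All bilCLiP libraries are RosaYFP and hepCLiP replicates 1 and 3 are RosaConfetti, so origin and reporter genotype cannot be fully told apart. In 2D, bilCLiP against hepCLiP, none of the 10 genes was called by edgeR, where 0.135% of all genes tested were called (0.0811% higher, 0.0541% lower), and 2 of the 10, Lcn2 and Cxcl2, had an unadjusted p under 0.05, as had 2146 of the 14798 genes. Lcn2 was lower in every bilCLiP 2D library than in any hepCLiP 2D library, 73.4 to 290 CPM against 487 to 1040 CPM (log2 -2.46 ± 0.597, 95% interval -3.78 to -1.15, adjusted p = 0.161). Cxcl2 was higher in every bilCLiP 2D library, 45.9 to 51.9 CPM against 17.2 to 26.0 CPM in hepCLiP 2D (1.24 ± 0.338, interval 0.50 to 1.99, adjusted p = 0.185). DESeq2's Wald test called both, Lcn2 at an adjusted p of 0.00111 and Cxcl2 at 0.0191. Cxcl5, at 299 to 438 CPM in bilCLiP 2D and 811 to 993 CPM in hepCLiP 2D, and Tnfaip3, at 34.8 to 99.9 CPM and 106 to 192 CPM, also lay lower without overlap. Tnfaip3 was called by neither tool, and DESeq2 gave no adjusted p for Cxcl5. In all, 1 member lay higher and 3 lower without overlap in bilCLiP 2D, where 21% of all genes did not overlap, 9.06% higher and 11.9% lower.

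In 3D no member was called between bilCLiP and hepCLiP and none was free of overlap, where 0.101% of all genes were called (0.0541% higher, 0.0473% lower) and 21.8% did not overlap. None of the 10 had an unadjusted p under 0.05, where 2461 genes had, and DESeq2 called none of the 9 to which it gave an adjusted p. Lcn2 had a log2 fold change of 0.24 with a 95% interval of -1.0 to 1.49, and Ccl2 one of -0.05 with an interval of -1.31 to 1.21. The widest interval was that of Cxcl5, -4.75 to 0.07 around -2.34. The order of mean levels for Lcn2 was bilCLiP 3D, hepCLiP 3D, hepCLiP 2D and bilCLiP 2D, in which the 3D groups did not differ beyond their spread. For Il33 and Ccl2 every 2D library stood above every 3D library, and the libraries of the origins overlapped within each culture.

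The size of the culture effect was also compared between the origins. For Lcn2 the effect in bilCLiP minus that in hepCLiP was 2.71 ± 0.814 on the log2 scale (95% interval 0.91 to 4.50), with an unadjusted p of 0.00697 and an adjusted p of 1. It was the only member with an unadjusted p under 0.05, as 532 of the 14798 genes had, and 0 genes were called (0% of those tested) by edgeR and 7 by DESeq2. The rise of Lcn2 is thus not shown to differ between the origins. For the remaining members the differences ran from -1.03 (Cxcl5, interval -4.27 to 2.21) to 1.28 (Ccl20, interval -0.70 to 3.26).

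Levels of different genes were set side by side per kilobase of exon in GENCODE M21, which is not stated to be the annotation used for counting. In hepCLiP 2D, Ccl2 led the ligands at 764 CPM per kilobase, followed by Cxcl5 at 474 and Cxcl1 at 170. In bilCLiP 2D the order was Ccl2 at 830, Cxcl5 at 191 and Cxcl1 at 149 CPM per kilobase. In hepCLiP 3D the means were 110 for Ccl2, 89.1 for Cxcl1 and 60.7 for Cxcl5, the last resting on replicate 2. In bilCLiP 3D they were 105 for Ccl2, 87.5 for Cxcl1 and 12 for Cxcl5. Lcn2 stood at 1730 CPM per kilobase in bilCLiP 3D and 56.0 in bilCLiP 2D.

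How the members varied among replicates was described by the Pearson correlation of their deviations from the group means over the 12 libraries, on the log2(CPM + 1) scale. Libraries share their depth and scaling factor, so these values carry no test. Of the 45 pairs 38 had a positive r, with a median of 0.287, and no such count was made for pairs of other genes. The highest was 0.858 for the feedback inhibitors Tnfaip3 and Nfkbia, followed by 0.792 for Lcn2 and Nfkbia and 0.759 for Ccl2 and Nfkbia. The lowest was -0.543 for Cxcl2 and Il33. By the same measure, over 10791 other genes of at least 5 CPM in a group, the most alike were Pin4 for Nfkbia (0.970), Ganc for Cxcl2 (0.967), Lnpk for Ccl20 (0.960), Mrpl54 for Cxcl1 (0.957), Vhl for Tnfaip3 (0.941), Mturn for Cxcl5 (0.937), Tpm2 for Cxcl16 (0.919), Zfp729b for Lcn2 (0.918), Pced1a for Ccl2 (0.915) and Cyb561 for Il33 (0.903). Each is the highest of many values over few libraries, and none was tested.

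The wider pathway was then read from lists of its parts, and no list was tested as a set. Of all genes tested, 17.9% were called lower and 16.9% higher in hepCLiP, and 14.5% and 15.8% in bilCLiP. With the replicate block 3656 of the 14798 genes were called lower and 3317 higher in hepCLiP, and 3177 and 3206 in bilCLiP. The counts of every list below stand beside these. Of the 5 NF-kB subunit genes, Nfkb1 fell in both origins. It had 67.5, 60.3 and 67.1 CPM in hepCLiP 3D, against 160, 146 and 168 CPM in hepCLiP 2D (log2 -1.28 ± 0.109, adjusted p = 4.6e-05). It had 70.4, 65.6 and 68.7 CPM in bilCLiP 3D, against 134, 116 and 124 CPM in bilCLiP 2D (-0.87 ± 0.108, adjusted p = 0.000292). In hepCLiP Nfkb2 was also called lower (94.6 ± 2.64 against 154 ± 54.3 CPM, SD, n = 3 each; adjusted p = 0.0402). That call was lost without any of 8 libraries (adjusted p 0.0534 to 0.172), which were the 3 hepCLiP 3D libraries, hepCLiP 2D replicates 1 and 2, bilCLiP 3D replicate 1, and bilCLiP 2D replicates 2 and 3. Rela, a subunit of the classical dimer, averaged 102 CPM in hepCLiP 3D and 98.3 CPM in hepCLiP 2D. Neither Rela, Relb nor Rel was called in an origin. The list's median was -0.61 in hepCLiP and -0.19 in bilCLiP. With total counts in place of TMM scaling, 5 of the 5 were called lower in hepCLiP and 3 in bilCLiP. Total counts also called 6623 of the 14798 genes lower in hepCLiP and 5408 in bilCLiP. The median of all genes was then -0.63 and -0.47.

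Among 10 genes of IkB proteins and the IkB kinase, Nfkbiz, the atypical nuclear IkB that NF-kB needs to induce Lcn2 in mouse macrophages, fell while Lcn2 rose. It had 21.3, 37.5 and 34.3 CPM in hepCLiP 3D, against 71.0, 92.2 and 120 CPM in hepCLiP 2D (log2 -1.60 ± 0.242, adjusted p = 0.000748). It had 41.8, 45.5 and 47.9 CPM in bilCLiP 3D, against 102, 78.7 and 111 CPM in bilCLiP 2D (-1.11 ± 0.238, adjusted p = 0.00569). In hepCLiP 2 of the 10 fell, Nfkbia and Nfkbiz, and the kinase subunit gene Chuk rose (155 ± 39.8 CPM in 3D, 89.1 ± 16.7 CPM in 2D, adjusted p = 0.0269). The Chuk call ended on leaving out 3D replicate 2 or 3 or 2D replicate 1 or 2 of hepCLiP (adjusted p 0.0693 to 0.0925). In bilCLiP Nfkbiz alone fell and Nfkbie alone rose (36.9 ± 8.72 CPM in 3D, 19.7 ± 1.56 CPM in 2D, adjusted p = 0.00900). In the TMM fit 34.7% of all genes were called in hepCLiP and 30.3% in bilCLiP. Neither this list nor the feedback inhibitors below exceeded those shares. With the replicate block 2 rose and 3 fell in hepCLiP, and 4 rose and 2 fell in bilCLiP. With total counts in place of TMM scaling none was called higher, and 5 were called lower in hepCLiP and 3 in bilCLiP. Of all 14798 genes, that scaling called 6623 lower in hepCLiP and 5408 in bilCLiP. The calls of Chuk (0.24, adjusted p = 0.402) and Nfkbie (0.43, adjusted p = 0.121) then ended. Of 12 feedback inhibitors, Tnfaip3 fell and Tnip2 and Tax1bp1 rose in hepCLiP under TMM scaling, while with total counts 7 were called lower in each origin and none higher, with Tnip2 at 0.08 (adjusted p = 0.786) and Tax1bp1 turned to -0.04 (adjusted p = 0.824) in hepCLiP. In the TMM fit edgeR called none in bilCLiP, where 2 and 2 of them had an unadjusted p under 0.05 in the higher and lower direction and DESeq2 called 1 higher and 2 lower. With the block 5 rose and 4 fell in hepCLiP, and 1 rose and 3 fell in bilCLiP. The Tnip2 and Tax1bp1 calls were each lost without any of 5 libraries (adjusted p 0.0554 to 0.125), for Tnip2 hepCLiP 3D replicates 2 and 3, hepCLiP 2D replicates 1 and 3 and bilCLiP 3D replicate 3, and for Tax1bp1 hepCLiP 3D replicates 2 and 3 and all hepCLiP 2D libraries.

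Of the receptors and adaptors that feed into NF-kB, more rose than fell under TMM scaling, though in hepCLiP not with total counts (5 and 5). Of 19 such genes 7 rose and 1 fell in hepCLiP, and 7 rose and 1 fell in bilCLiP, with medians of 0.27 and 0.37 against -0.06 and 0.00 over all genes. Of all genes, 16.9% were called higher in hepCLiP and 15.8% in bilCLiP. Il1r1, the signalling receptor of interleukin 1, had 209, 274 and 175 CPM in hepCLiP 3D, against 32.1, 18.8 and 67.4 CPM in hepCLiP 2D (log2 2.48 ± 0.476, adjusted p = 0.00277). It had 171, 255 and 135 CPM in bilCLiP 3D, against 13.5, 18.1 and 32.0 CPM in bilCLiP 2D (3.14 ± 0.490, adjusted p = 0.00109). Its partner Il1rap rose by 1.92 and 2.30 on the log2 scale in hepCLiP and bilCLiP, and Il17ra, the receptor chain of interleukin 17, by 1.34 and 1.57. Cd14, a co-receptor of Toll-like receptor 4, rose to 655 ± 75.6 CPM in hepCLiP 3D, against 130 ± 45.1 CPM in hepCLiP 2D, and to 350 CPM in bilCLiP 3D, against 147 CPM in bilCLiP 2D. Tnfrsf1a, the main receptor of tumour necrosis factor, rose by 1.25 ± 0.157 in hepCLiP and 1.34 ± 0.158 in bilCLiP. The gene that fell was Tlr3, a receptor of double-stranded RNA, at -0.70 (adjusted p = 0.0174) in hepCLiP and -0.96 (adjusted p = 0.00390) in bilCLiP. Total counts in place of TMM scaling moved the median of all genes to -0.63 in hepCLiP and -0.47 in bilCLiP. Under that scaling 5 rose and 5 fell in hepCLiP and 6 rose and 5 fell in bilCLiP. Of all 14798 genes, it called 1292 higher and 6623 lower in hepCLiP, and 1346 higher and 5408 lower in bilCLiP. With the block 9 rose and 3 fell in hepCLiP and 8 rose and 2 fell in bilCLiP.

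**Figure D5:**
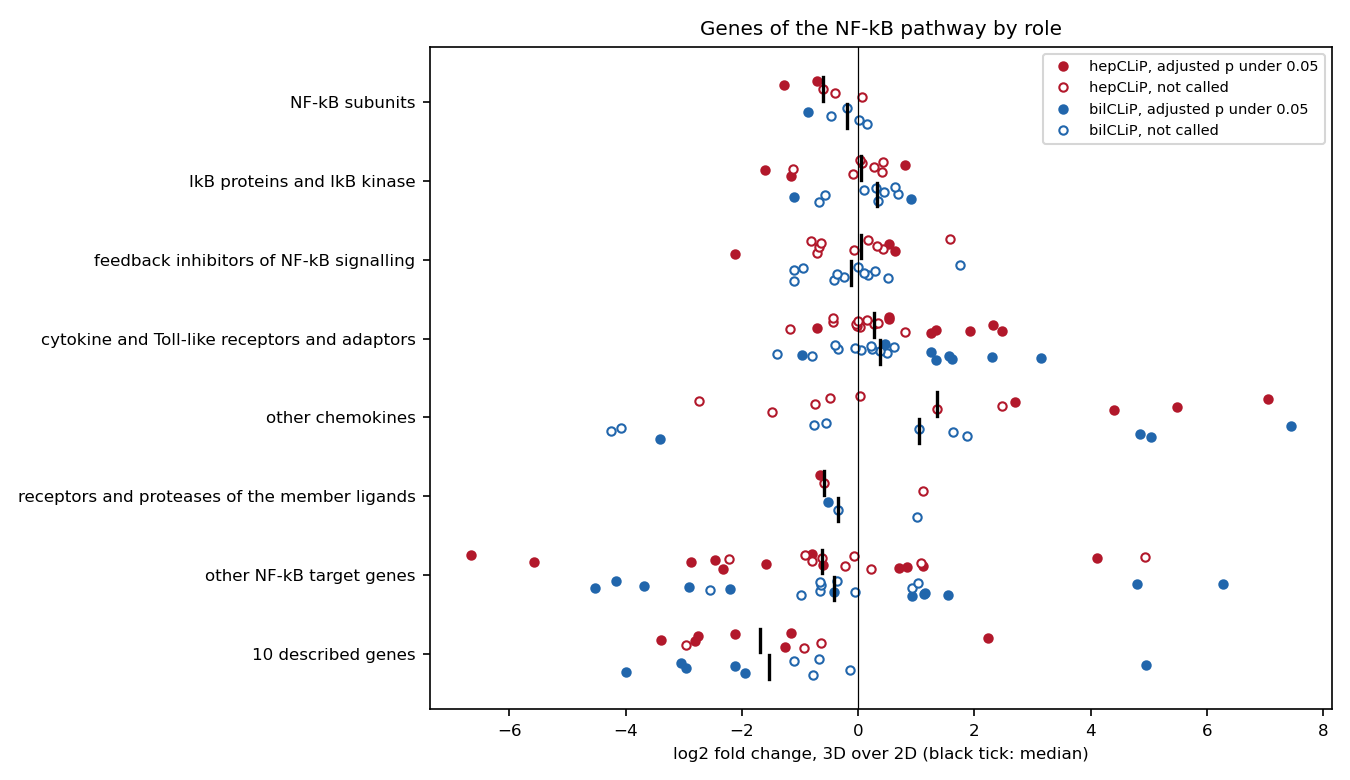
log2 fold changes, 3D over 2D, of the tested genes of 7 pathway lists and of the 10 described genes, for hepCLiP (upper row of each list) and bilCLiP (lower row). Filled points have an adjusted p under 0.05 and black ticks are medians; receptors and adaptors have 7 filled points right of 0 and 1 left of it in each origin under TMM scaling (5 and 5 in hepCLiP with total counts).

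Other chemokines were called higher in hepCLiP and in both directions in bilCLiP. Of 27 further chemokine genes 11 passed the filter, 4 rose and none fell in hepCLiP (0 had an unadjusted p under 0.05 in the lower direction, and DESeq2 called 1 lower), and 3 rose and 1 fell in bilCLiP. Cxcl12, a homeostatic ligand of CXCR4, had 79.0, 68.9 and 37.7 CPM in hepCLiP 3D, against 2.50, 0.727 and 0.898 CPM in hepCLiP 2D (log2 5.48 ± 0.513, adjusted p = 7.52e-05). It had 37.7, 22.7 and 23.6 CPM in bilCLiP 3D, against 0.990, 1.2 and 0.683 CPM in bilCLiP 2D (4.85 ± 0.505, adjusted p = 0.00013). Ccl9 averaged 33.9 ± 15.7 CPM in hepCLiP 3D and 0.248 ± 0.226 CPM in hepCLiP 2D, and 46.0 ± 44.8 CPM in bilCLiP 3D and 0.263 ± 0.290 CPM in bilCLiP 2D. Cxcl17 rose in hepCLiP, to 71.5 ± 22.6 CPM in 3D against 11 ± 6.08 CPM in 2D, and was not called in bilCLiP, at 67.1 CPM in 3D and 32.5 CPM in 2D (adjusted p = 0.132). The fourth was Cxcl9, an interferon-induced ligand, at 2.77 CPM in hepCLiP 3D and 0.122 CPM in hepCLiP 2D. In bilCLiP it had 33 counts summed over 3D and 1 over 2D, a ratio of 46.9 with an exact 95% interval of 7.86 to 1910 that covers counting error only.

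Cxcl3 and Ccl7 lie in the same chromosomal clusters as member genes. Cxcl3 had 8.36, 2.58 and 3.94 CPM in bilCLiP 3D, against 32.7, 74.1 and 50.5 CPM in bilCLiP 2D (log2 -3.41 ± 1.04, adjusted p = 0.0308). That call was lost without bilCLiP 3D replicate 2 or 3 or 2D replicate 2 or 3 (adjusted p 0.0555 to 0.109). In hepCLiP 3D replicate 2 Cxcl3 had 39.8 CPM, against 3.15 and 2.50 CPM in the other hepCLiP 3D libraries, and 37.5, 75.7 and 14.6 CPM in hepCLiP 2D, so this library stood high for Cxcl3 as it did for Cxcl5. Ccl7 likewise had 30.0 CPM there, with 2.63 and 5.69 CPM in the other hepCLiP 3D libraries, and 186, 61.0 and 7.29 CPM in hepCLiP 2D; its adjusted p was 0.167 in hepCLiP and 0.0688 in bilCLiP. With the block 1 further chemokine fell in hepCLiP and 3 fell in bilCLiP.

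Of 11 receptors and proteases of the member ligands 3 passed the filter, Slc22a17, Adam10 and Adam17. The 8 that did not, Cxcr1, Cxcr2, Cxcr6, Ccr2, Ccr6, Ackr1, Ackr2 and Il1rl1, had 0 to 33 counts summed over the 12 libraries and at most 0.659 CPM in any library. Slc22a17, a receptor of Lcn2, averaged 5.50 ± 1.27 CPM in hepCLiP 3D and 2.54 ± 1.28 CPM in hepCLiP 2D, and 5.95 ± 7.57 CPM in bilCLiP 3D and 2.94 ± 3.49 CPM in bilCLiP 2D, and was not called (adjusted p = 0.416 in hepCLiP and 0.477 in bilCLiP). Adam17 fell in hepCLiP (44.4 ± 5.28 CPM in 3D, 70.0 ± 7.0 CPM in 2D, adjusted p = 0.00689) and in bilCLiP (61.3 ± 10.6 and 87.0 ± 6.54 CPM, adjusted p = 0.0271). The bilCLiP call was lost without 3D replicate 2 or 3 or 2D replicate 1 or 3 (adjusted p 0.0652 to 0.104). Counts of upstream cytokine genes were few: Il1b had 3 counts in all libraries, Il1a 35 and Tnf 44.

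Of 28 other NF-kB target genes 21 passed the filter, and they split. In hepCLiP 8 fell and 4 rose, where 17.9% of all genes were called lower and 16.9% higher. In bilCLiP 6 fell and 6 rose, where 14.5% were called lower and 15.8% higher. The medians of the list were -0.62 and -0.42. Csf1, the macrophage growth factor, had 32.2, 49.8 and 35.5 CPM in hepCLiP 3D, against 298, 253 and 316 CPM in hepCLiP 2D (log2 -2.88 ± 0.185, adjusted p = 1.12e-05). It fell by 2.20 ± 0.180 in bilCLiP. Csf2, another growth factor of myeloid cells, was at 0.141 ± 0.0676 CPM in hepCLiP 3D, against 7.09 ± 4.07 CPM in hepCLiP 2D, and at 0.134 ± 0.144 CPM in bilCLiP 3D, against 3.34 ± 0.102 CPM in bilCLiP 2D. Plau, encoding the urokinase protease, fell to 3 counts summed over hepCLiP 3D, against 495 over hepCLiP 2D, a ratio of 0.00915 with an exact 95% interval of 0.00188 to 0.0269 for counting error. Among those that rose, C3, the central complement protein, had 28400, 27900 and 20800 CPM in hepCLiP 3D, against 1470, 1780 and 1200 CPM in hepCLiP 2D (4.11 ± 0.821, adjusted p = 0.00336). It rose by 4.80 ± 0.849 in bilCLiP. Sod2, a mitochondrial antioxidant enzyme, rose by 1.12 and 1.15 and the apoptosis inhibitor Birc3 by 0.85 and 1.14 in hepCLiP and bilCLiP. Saa3, an acute phase protein, was called in bilCLiP (706 ± 626 CPM in 3D, 9.08 ± 14.1 CPM in 2D, adjusted p = 0.0297). Its call was lost without bilCLiP 3D replicate 2 or 3 or 2D replicate 1 or 2 (adjusted p 0.0531 to 0.0883). In hepCLiP Saa3 had 709, 11100 and 419 CPM in 3D, against 154, 212 and 32.6 CPM in 2D, and missed the threshold (adjusted p = 0.0530). The high 3D library was again replicate 2. With total counts 10 fell and 1 rose in hepCLiP, where 6623 of all 14798 genes were called lower and 1292 higher.

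Between origins, the main edgeR fit called 1 gene of all lists, Birc2 in 3D. Of all genes tested it called 0.135% in 2D and 0.101% in 3D. The lists were not counted between origins under DESeq2, which called 475 genes in 2D and 577 in 3D, or under the other alternatives. Birc2, a regulator of NF-kB signalling and cell death, had 109 ± 12.5 CPM in bilCLiP 3D and 45.2 ± 3.92 CPM in hepCLiP 3D (log2 1.27 ± 0.172, adjusted p = 0.0257). The call was lost without hepCLiP 3D replicate 1 or 2, any bilCLiP 3D library or bilCLiP 2D replicate 1 (adjusted p 0.0548 to 0.150). With RosaYFP libraries only, the log2 fold change of Birc2 was 1.40, with 1 hepCLiP 3D library left and no spread of its own. Origin and reporter genotype cannot be fully told apart here either.

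Markers of other cells were read beside these results. Of 10 leukocyte and Kupffer cell markers, Cd3e had no count in any library and Adgre1 and Clec4f none outside hepCLiP 2D. The list summed to 8.64 to 20.3 CPM in hepCLiP 3D and 6.65 to 11.3 CPM in hepCLiP 2D, and to 5.26 to 19.4 CPM in bilCLiP 3D and 5.03 to 10.7 CPM in bilCLiP 2D, mostly from Csf1r and Cd68. Fibroblast and stellate markers summed to 291 CPM in hepCLiP 3D replicate 1, nearly all from Dcn at 281 CPM, and to at most 39.6 CPM in any other library. The summed chemokine level was lowest in that same library, at 125 CPM, and its part in the result was not tested. Mesothelial markers moved with the chemokines, at 5.93 to 25.8 CPM in hepCLiP 3D and 333 to 988 CPM in hepCLiP 2D, and at 13.0 to 28.0 CPM in bilCLiP 3D and 546 to 873 CPM in bilCLiP 2D. Most of that was Msln, while Upk3b and Lrrn4, also mesothelial, had no count in any 3D library and at most 0.150 and 0.185 CPM in any 2D library. The part of these markers in the chemokine results was not tested. Biliary markers summed to 11300 to 15700 CPM in hepCLiP 3D and 3180 to 5940 CPM in hepCLiP 2D, and to 13600 to 33300 CPM in bilCLiP 3D and 5480 to 10400 CPM in bilCLiP 2D. Endothelial markers stayed at or below 3.74 CPM in sum in every library.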

How the data were processed

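Total RNA of cultured cells was sequenced as 12 libraries in 4 groups of 3. The authors deposited raw counts per gene. Per the submitters' processing notes, tools were STAR 2.7.10b, featureCounts 2.0.1 and DESeq2, on GRCm39. The annotation and the strand option were not given in the sources used here. Whether reads of a gene and its antisense partner were kept apart is therefore not known. The deposited normalized table was not used here.

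The raw counts were fitted with edgeR 4.0.16 (R 4.3.3) using filterByExpr (14798 genes kept), TMM scaling, and a robust quasi-likelihood fit of 4 group means over all 12 libraries. P-values were adjusted over all genes tested (Benjamini-Hochberg), with a threshold of 0.05. CPM were scaled by the TMM effective library size. The size of each log2 fold change divided by the root of its F value gave its standard error. Total counts were 16142365 to 21253382 per library. No libraries were identical, and every pair of a group differed by far more than sampling noise.

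Same-numbered libraries of the 2 cultures of an origin deviated together from their group means (r of 0.474 to 0.513 in hepCLiP and 0.432 to 0.506 in bilCLiP), and every other pairing within an origin was negative. Deviations from a group mean cancel out, so positive same-number values make the others negative on average. Their sign adds no evidence of pairing. The numbers come from the sample titles, and the block was fitted as an alternative. DESeq2 1.42.0, other scalings, no filter, RosaYFP libraries only and leaving out each library were the further alternatives. Scaling by total counts was added after the data were seen.

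The members and lists were chosen with earlier results of these data known. Named were the members, and per list and comparison up to 4 called genes with the largest changes among those of at least 5 CPM in a group, with some others chosen after their values were seen: Rela, Relb, Rel, Tnfrsf1a, Tlr3, Cxcl9, Ccl7, Sod2, Birc3, Il1a, Il1b, Tnf, Adam10 and the receptors of the ligands. Promoter sequences are RefSeq's.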

Additional observations from a re-analysis of the deposited data

How the results depend on the processing

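Over 945 alternative values of the 10 genes, 910 kept their direction where called and their side of the threshold, 17 lost a call and 18 gained one. No called value turned round. Most of the 945 belong to comparisons in which the gene was not called, and these count as kept by staying uncalled. Uncalled values did change sign, as for Cxcl16 in bilCLiP (-0.76 to 0.46) and Cxcl5 between origins in 3D (-3.8 to 0.6). Leaving out each library in turn left 4133 to 5227 genes called in hepCLiP 3D against 2D and 3086 to 4555 in bilCLiP. It left 5 to 7 members lower and 0 to 1 higher in hepCLiP, and 3 to 6 lower in bilCLiP, with Lcn2 higher there each time. Between origins it left 6 to 31 genes called in 2D, 3 to 251 in 3D, and 0 to 3 for the difference in culture effect.

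The replicate block called 6973 genes in hepCLiP and 6383 in bilCLiP, with 9 and 8 members lower. Of the members it changed the calls given in the report and no others in the culture comparisons. Between origins, where same-numbered libraries correlated at 0.022 to 0.150, the block as an additive term called 62 genes in 2D and 44 in 3D and no member. With total counts only, 7915 genes were called in hepCLiP (6623 lower) and 6754 in bilCLiP (5408 lower), with 8 members lower in each. Under that scaling Tax1bp1 turned to -0.04 in hepCLiP. Without a low-count filter 3 members were lower in bilCLiP, Cxcl5 (adjusted p = 0.0977) and Ccl20 (0.0972) being lost. DESeq2 called 475 genes between origins in 2D, with 1 member higher and 1 lower, 577 in 3D and 7 for the difference in culture effect; it gave no adjusted p for Cxcl5. With RosaYFP libraries only, 769 genes were called in hepCLiP, with 1 member lower and 0 higher, and 5 between origins in 2D; in bilCLiP Ccl20 was lost (adjusted p = 0.0813). Among the lists, the other NF-kB targets called lower in hepCLiP went to 5 without hepCLiP 3D replicate 1 and to 3 with RosaYFP libraries only, and with that same set the receptors called higher went to 1. A further chemokine was called lower in hepCLiP under 12 alternatives. The feedback inhibitors called lower reached 7 in each origin with total counts. The causes were not tested, beyond the fewer samples of the RosaYFP run.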
